A study of Mus musculus with 6 samples.

Results

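Gpr116, now named Adgrf5, and 9 other adhesion G protein-coupled receptors were followed in mouse type II alveolar epithelial cells, the lung cells that make and secrete surfactant. The 10 genes were chosen by symbol, each through a probe set that carries exactly 1 gene symbol, out of 19938 genes measured that way. All 10 had 1 such probe set. The group was drawn up with the differences between knockout and control arrays known, so its values in that comparison are given as a description without a test.

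The series holds 6 Affymetrix arrays. Each array carried RNA from a pool of 3 adult mice aged 8 weeks, and the labels call the animals littermates matched for sex and age. All mice carried the transgenes SP-C-rtTA and (tetO)7CMV-Cre, in which the surfactant protein C promoter drives a reverse tetracycline transactivator that switches on Cre. The 3 pools labelled knockout came from mice that were Gpr116flx/flx as well (triple-transgenic in the labels). The labels list no floxed allele for the 3 control pools (double-transgenic), so the groups share Cre and differ in that allele. Doxycycline treatment is not described in them. Per the labels' protocols, cells were freed with collagenase, enriched by differential plating, and lysed after 2 hours. Their titles carry a number that was 9, 9 and 11 on the knockout arrays and 8, 8 and 10 on the control arrays. Its meaning is not given, and if it marks a batch, batch and genotype cannot be told apart.

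Adhesion receptors have a long extracellular region, a membrane-proximal domain in which many of them cleave themselves, and a bundle of membrane-spanning helices that couples to G proteins. The stretch just after the cleavage site can act as a tethered agonist. Gpr116 is abundant in lung, where it couples to Gq and G11 in type II cells and limits the surfactant pool, and it is also expressed by endothelial cells. The comparison of knockout with control pools asks what the loss of this receptor does to the transcripts of type II cells.

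The defining markers of type II cells were high on all arrays. All 10 measured markers averaged 12.41 to 12.55 on log2 per array, with 2 of them called higher and 0 lower. The highest value on an array was 13.32 to 13.43, and Sftpc, at a mean of 13.15 in both groups, lay near it. Differences in markers this high may be understated. Markers of airway cells were present too. All 11 measured ciliated cell markers were lower on the knockout arrays by limma at an adjusted p under 0.05, averaging 8.49, 8.11 and 7.93 on knockout 1, 2 and 3 and 9.26, 9.17 and 9.28 on the controls. Of 5 club cell markers 4 were lower. Over all 19938 genes 8.49% were called, 4402 genes had an unadjusted p under 0.05 and 27.6% had groups that did not overlap. Of 7 type I cell markers 1 was higher, but 6 had an unadjusted p under 0.05. In 5 of them the groups did not overlap, 2 higher and 3 lower, and the differences of the 7 ran from -0.38 to 0.72. Of 5 neutrophil markers 1 was higher (also 1 at an unadjusted p under 0.05), and 0 of 7 macrophage, 0 of 5 lymphocyte and 0 of 9 mesenchymal markers passed (0, 0 and 1 of them at an unadjusted p under 0.05). In RNA from a bulk pellet, fewer cells of a type and less RNA per cell cannot be told apart.

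The Gpr116 probe set was higher, not lower, in the pools labelled knockout. Its values were 11.89, 11.78 and 11.87 on knockout 1, 2 and 3, against control values of 11.49, 11.53 and 11.51. The lowest knockout value stood 0.25 above the highest control value, so the groups did not overlap. The group means were 11.85 ± 0.06 and 11.51 ± 0.02 (SD, n = 3 each), a log2 difference of 0.34 ± 0.05 (limma SE) or 1.26-fold. This is 5.75 times the larger of the group SDs. No source used here says whether its probes fall inside the deleted segment, so the probe set cannot check the genotype, and every direction in the text rests on the labels. Leaving out 1 array at a time moved the difference between 0.31 and 0.37.

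Endothelial cells also make Gpr116, and their markers are given beside its rise for that reason. Of 10 endothelial markers 2 were higher, 1 was lower and 7 did not pass by limma (30% called, beside 8.49% of all genes). The adhesion molecules Esam and Pecam1 were higher, by 0.50 ± 0.05 (adjusted p = 0.0049) and 0.45 ± 0.07 (adjusted p = 0.0104). Esam had a level above 91.5% of genes tested, while Pecam1 had a low signal, above 25.3% of them. The VEGF receptor Kdr was lower by 1.18 ± 0.20 (difference -1.18, adjusted p = 0.0152). Cdh5 stood at 0.62 ± 0.16 and did not pass (limma adjusted p = 0.0614), though its groups did not overlap. The median difference of the 10 markers was 0.145. Of the 10, 3 had groups apart and higher and 1 apart and lower, beside 14.8% and 12.8% of all genes. The mean of the 10 markers, Kdr included, was 6.93, 6.95 and 6.95 on the knockout arrays and 6.93, 6.80 and 6.80 on the controls. The level of the Gpr116 probe set was above that of 99.2% of genes tested, which does not show which cells the signal came from. Of the 10 type II markers 5 had groups apart and higher and 1 apart and lower, beside 14.8% and 12.8% of all genes. The 2 called were Lamp3 (0.32 ± 0.07) and Lpcat1 (0.22 ± 0.05). The part of either cell type in the Gpr116 difference was not tested.

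**Figure D1:**
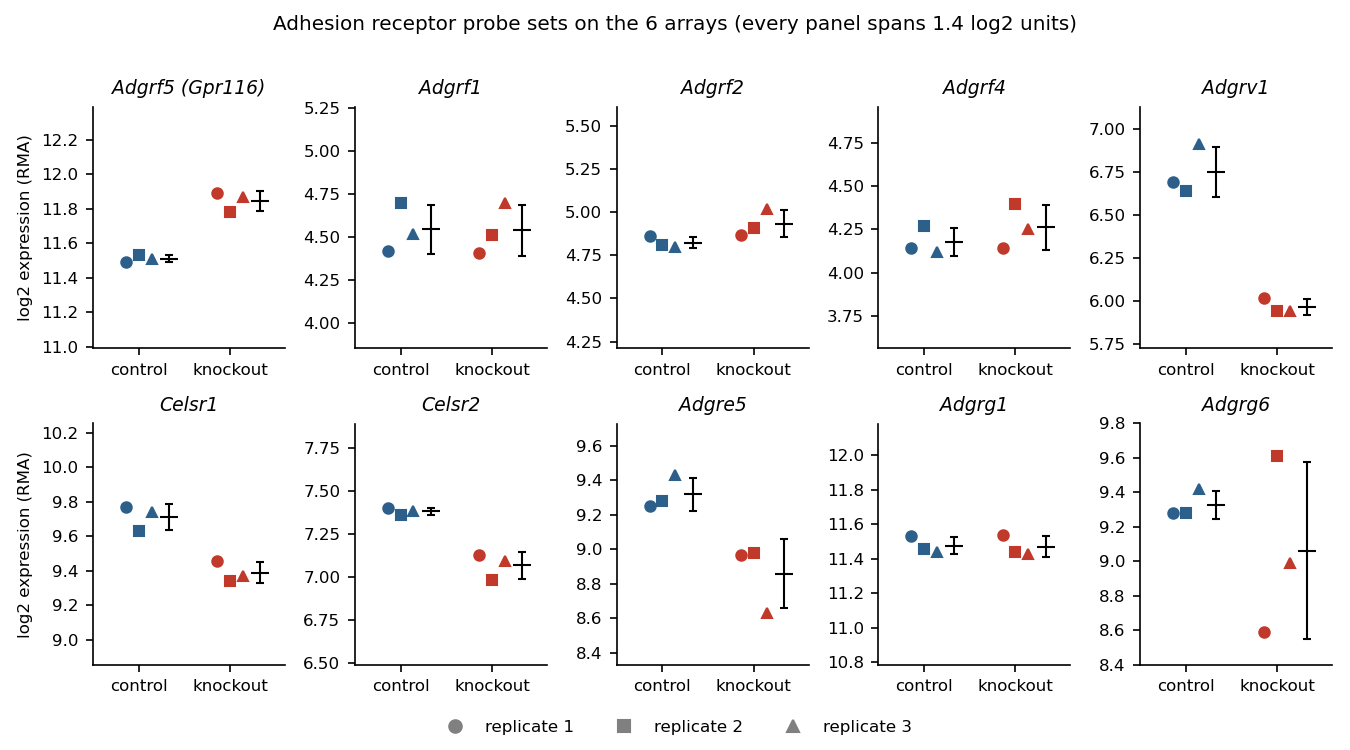
Log2 expression of the 10 receptors on each array, controls in blue and knockout arrays in red, with symbols for the replicate number and bars for the mean ± SD of 3 arrays. Gpr116 (Adgrf5) lies above the controls on all 3 knockout arrays, Adgrv1, Celsr1, Celsr2 and Adgre5 lie below them, and Adgrg6 spreads from 8.59 to 9.61 among the knockout arrays.

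Promoters are shown for Adgrf5, Adgrv1 and Celsr2, the receptors called in the comparison for which a window was at hand. RefSeq (GRCm38.p6) gave windows for 7 of the 10 genes, among them 2 start sites of Adgrf5, and none was used for Celsr1, Adgre5 and Adgrf2. Each sequence is the 250 bases before a start site, read 5′ to 3′ on the gene's strand, and capitals mark motif matches on either strand.
Adgrf5, upstream start, chr17:43360181-43360430, + strand: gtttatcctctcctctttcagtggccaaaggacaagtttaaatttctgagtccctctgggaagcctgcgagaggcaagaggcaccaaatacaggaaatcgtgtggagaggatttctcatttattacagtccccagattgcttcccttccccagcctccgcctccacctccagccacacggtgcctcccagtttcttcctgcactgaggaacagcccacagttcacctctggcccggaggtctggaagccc
Adgrf5, downstream start, chr17:43389216-43389465, + strand: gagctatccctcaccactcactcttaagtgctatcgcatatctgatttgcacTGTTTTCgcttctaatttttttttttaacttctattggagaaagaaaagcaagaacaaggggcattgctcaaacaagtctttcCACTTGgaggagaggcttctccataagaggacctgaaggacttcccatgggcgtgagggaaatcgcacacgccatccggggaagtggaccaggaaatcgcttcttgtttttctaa
Adgrv1, chr13:81633145-81633394, - strand: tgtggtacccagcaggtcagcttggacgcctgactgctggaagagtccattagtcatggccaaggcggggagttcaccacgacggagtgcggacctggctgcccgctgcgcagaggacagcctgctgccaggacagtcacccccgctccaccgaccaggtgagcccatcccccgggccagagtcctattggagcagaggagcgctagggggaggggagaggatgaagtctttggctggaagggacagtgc
Celsr2, chr3:108415580-108415829, - strand: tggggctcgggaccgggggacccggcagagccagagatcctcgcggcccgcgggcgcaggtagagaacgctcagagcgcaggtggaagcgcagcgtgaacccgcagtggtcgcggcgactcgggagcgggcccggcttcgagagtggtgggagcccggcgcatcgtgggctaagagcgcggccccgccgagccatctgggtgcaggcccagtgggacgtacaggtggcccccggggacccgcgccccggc
5 motifs were searched on both strands, with N for any base: the RFX half-site GTTNCC, found in 39.4% of all 32851 RefSeq windows of this length, the NKX2-1 core CAAGTG (11.6%), the CRE half-site TGACG (17.8%), the forkhead motif TGTTTNC (17.8%) and the GC box GGGCGG (32.7%). The window of the downstream Adgrf5 start held a forkhead match 192 to 198 bases before the start and an NKX2-1 core match, on the other strand, 110 to 115 bases before it. NKX2-1 is the transcription factor that specifies lung epithelium. The other 3 windows held none of the 5 motifs, which says only that these letters are not in these bases. The windows differed in CpG content, with 5 and 7 CpG dinucleotides in the Adgrf5 windows, 11 in that of Adgrv1 and 32 in that of Celsr2, against a median of 6 over all windows.

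Adgrf1, Adgrf2 and Adgrf4 belong to the same subfamily as Gpr116 and lie beside it in the genome, 1, 4 and 5 protein-coding genes away in the RefSeq table. All 3 had low signal, below the median level of the genes tested, and none passed the limma threshold. Adgrf1, a receptor for the lipid synaptamide in nerve cells, read 4.41, 4.51 and 4.70 on the knockout arrays and 4.42, 4.70 and 4.52 on the controls. Its ranges overlapped almost wholly, with a difference of -0.01 ± 0.10. Adgrf4 read 4.14, 4.40 and 4.25 against 4.14, 4.27 and 4.12, a difference of 0.09 ± 0.08, and its groups overlapped as well. Adgrf2 read 4.87, 4.91 and 5.02 against 4.86, 4.81 and 4.80. Its groups did not overlap, by a gap of only 0.01, and the difference was 0.11 ± 0.06. No call in these 3 genes accompanied that of the Gpr116 probe set.

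Genes that neighbour Gpr116 were compared in the same way. Among the 10 protein-coding genes on each side, 17 are not among the 10 receptors and 16 of these were measured. By limma 1 rose, 0 fell and 15 did not pass (6.25% called, beside 8.49% of all genes). The median difference was -0.082 against 0.003 over all genes tested. Cenpq, a centromere protein gene 9 genes away, rose by 0.47 ± 0.07 (adjusted p = 0.0117), reading 7.24, 7.02 and 7.23 against 6.74, 6.68 and 6.66. Leaving out control 2 or control 3 ended its call (highest limma adjusted p = 0.067). Pla2g7, which encodes the platelet-activating factor hydrolase and lies 3 genes away, stood at -0.50 ± 0.12 (limma adjusted p = 0.0556) and passed with the replicate block (adjusted p = 0.0208), where 2 neighbours were called.

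Adgrv1, Celsr1, Celsr2 and Adgre5 were lower on the knockout arrays, and Gpr116 was the only one of the 10 called higher. Together 5 of the 10 genes passed the limma threshold, beside 8.49% of all genes (3.36% higher and 5.13% lower), and 6 of 10 had groups that did not overlap, beside 27.6% of all genes (14.8% higher and 12.8% lower). Since the group was drawn up with these differences known, the shares describe the choice and carry no weight as evidence. The median difference of the 10 genes was -0.135.

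Adgrv1, the very large receptor that links the bases of sensory hair bundles and is mutated in Usher syndrome, differed most. It read 6.02, 5.94 and 5.94 on the knockout arrays and 6.69, 6.64 and 6.91 on the controls. Its mean level lay below the median of the genes tested, above 35.3% of them. The groups were separated by 0.62, and the knockout arrays agreed to within 0.08 while the controls ranged over 0.27. The difference was -0.78 ± 0.08, a level 1.72-fold lower, and lay between -0.83 and -0.70 when any 1 array was left out. It was called in 6 of 6 such fits, alone among the 5 receptors called.

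Celsr1 and Celsr2 are the flamingo-type cadherin receptors that set planar polarity across epithelial sheets, including the alignment of cilia. Celsr1 read 9.46, 9.34 and 9.37 on the knockout arrays and 9.77, 9.63 and 9.74 on the controls, a difference of -0.32 ± 0.06. Celsr2 read 7.13, 6.98 and 7.09 against 7.40, 7.36 and 7.38, a difference of -0.31 ± 0.06. In both genes each knockout value lay under each control value, by 0.17 for Celsr1 and 0.23 for Celsr2. The third member of the subfamily, Celsr3, read 6.04, 6.03 and 6.14 against 6.20, 6.22 and 6.09, with overlapping groups and a difference of -0.10 ± 0.06 that did not pass.

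Adgre5, also called CD97, is a receptor of leukocytes and of many epithelia that binds the complement regulator Cd55. It read 8.97, 8.98 and 8.63 on the knockout arrays and 9.25, 9.28 and 9.43 on the controls. Knockout 3 was the lowest array and control 3 the highest, and the groups were 0.27 apart. The difference was -0.46 ± 0.11, with an SD of 0.199 among knockout arrays against 0.096 among controls. With the replicate block the number of these receptors called lower was 3, as Adgre5 no longer passed (-0.46 ± 0.12). Celsr1, Celsr2 and Adgre5 were not called without knockout 3 or without any 1 control, nor Gpr116 without any 1 control. Since leukocytes also make Adgre5, their markers are given beside it: the median difference was 0.023 for lymphocytes, 0.033 for macrophages and 0.000 for neutrophils, with 1 neutrophil marker, Retnlg, higher by 0.58 ± 0.13 (limma adjusted p = 0.0382). Their part in the Adgre5 difference was not tested.

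The ciliated and club cell markers fell beside these 4 receptors. The median difference was -1.10 over the 11 ciliated markers, with a range of -1.33 to -0.78, and -0.62 over the 5 club markers, with a range of -1.10 to -0.13. Adgrv1 stood at the small end of the ciliated range, Celsr1, Celsr2 and Adgre5 were nearer to 0 than any ciliated marker, and all 4 receptors lay inside the range of the club markers. Within the knockout pools the ciliated mean was largest in knockout 1 and smallest in knockout 3. Adgrv1, Celsr1 and Celsr2 were highest on knockout 1, but they ranged over only 0.08, 0.12 and 0.15 among the knockout arrays. The median SD of a gene on these arrays was 0.0907, so the order of the pools in these receptors is a description only. Adgre5 was lowest on knockout 3, Celsr1 and Celsr2 were lowest on knockout 2, and Adgrv1 was equal on those pools. The part of airway cells in the lower receptor levels was not tested.

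**Figure D2:**
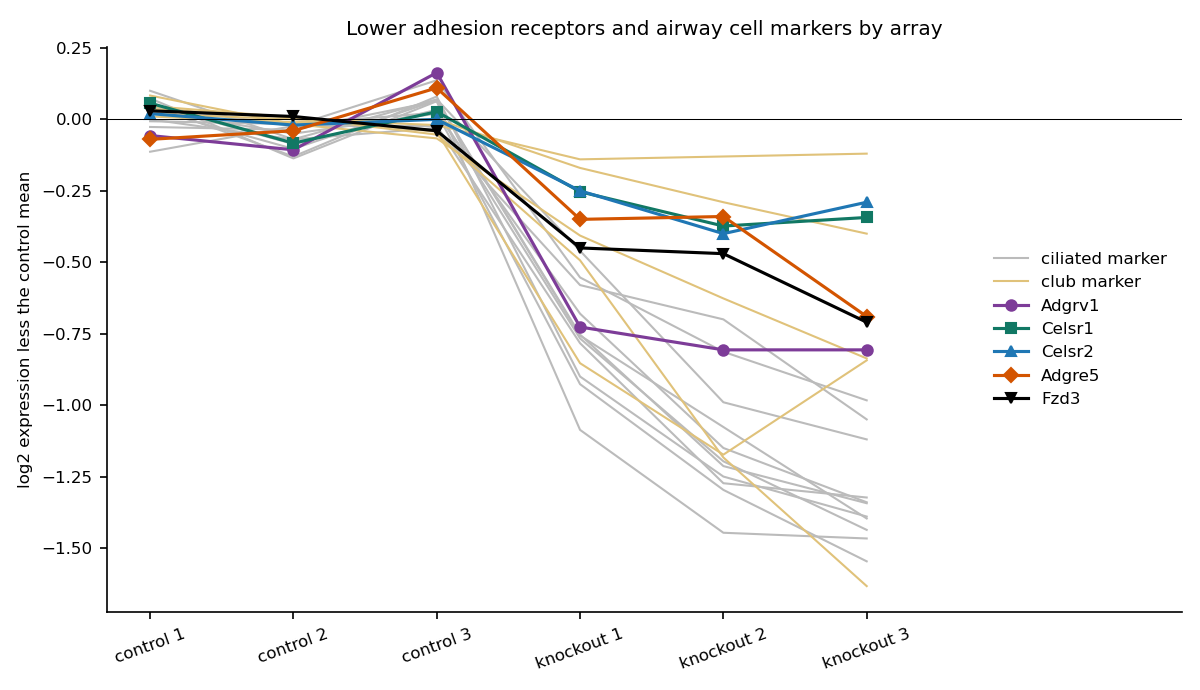
Log2 expression less the mean of the 3 controls for Adgrv1, Celsr1, Celsr2, Adgre5 and the polarity gene Fzd3 (coloured), beside 11 ciliated markers (grey) and 5 club markers (tan), by array. Lines join the values of 1 gene and imply no order of arrays, and all of these genes lie below 0 on the 3 knockout arrays.

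Adgrg1 and Adgrg6 did not pass, and they differed in spread. Adgrg1, also called GPR56, a receptor for collagen III and transglutaminase 2, read 11.54, 11.44 and 11.43 on the knockout arrays and 11.53, 11.46 and 11.44 on the controls. The values matched within 0.02 at each replicate number, and the difference was -0.01 ± 0.06. Adgrg6, also called GPR126, which binds collagen IV and drives myelination by Schwann cells, read 8.59, 9.61 and 8.99 against 9.28, 9.28 and 9.42. Knockout 2 was above all controls and knockout 1 and 3 were below them, with an SD of 0.514 in the knockout group and 0.081 in the controls. The difference was -0.26 ± 0.23. It was -0.54 without knockout 2, where Adgrg6 was called, and -0.03 without knockout 1.

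The knockout pools differed from one another in other adhesion receptors as well. Of the 28 measured receptors of the family, 4 ranged over at least 0.5 among the knockout arrays, namely Adgrg6, Adgra2, Adgrg2 and Adgrl3. All 4 were lowest on knockout 1 and highest on knockout 2. Among all genes tested 1673 (8.39%) had such a range, and 37.8% of those had this order. Adgra2, a co-receptor for Wnt7 signals in vessels, read 7.23, 8.13 and 7.49 on the knockout arrays and 7.36, 7.40 and 7.42 on the controls. Adgrl3, a latrophilin that binds teneurins and FLRT proteins, read 5.35, 6.71 and 6.15 against 5.72, 5.81 and 5.69. In both genes the controls stayed within 0.12 of each other while the knockout arrays ranged over 0.90 and 1.36.

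Mesenchymal markers varied among the same pools. The fibroblast genes Tcf21 and Pdgfra, named here after their values were seen, read 7.74, 10.04 and 8.90 and 9.12, 11.08 and 10.18 on knockout 1, 2 and 3. On the controls they read 8.78, 9.21 and 9.07 and 10.23, 10.80 and 10.62. Of the 9 mesenchymal markers 7 ranged over at least 0.5 among knockout arrays. Of these, 3 (42.9%) were lowest on knockout 1 and highest on knockout 2, beside 37.8% of all genes with such a range. The list did not move as 1 block. Decorin (Dcn) was highest on knockout 1, at 11.41 against 10.63 and 10.48. The mean of the 9 was 9.06, 9.59 and 9.12 on the knockout arrays and 9.45, 9.33 and 9.18 on the controls. The part of these cells in the spread of the 4 receptors was not tested.

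**Figure D3:**
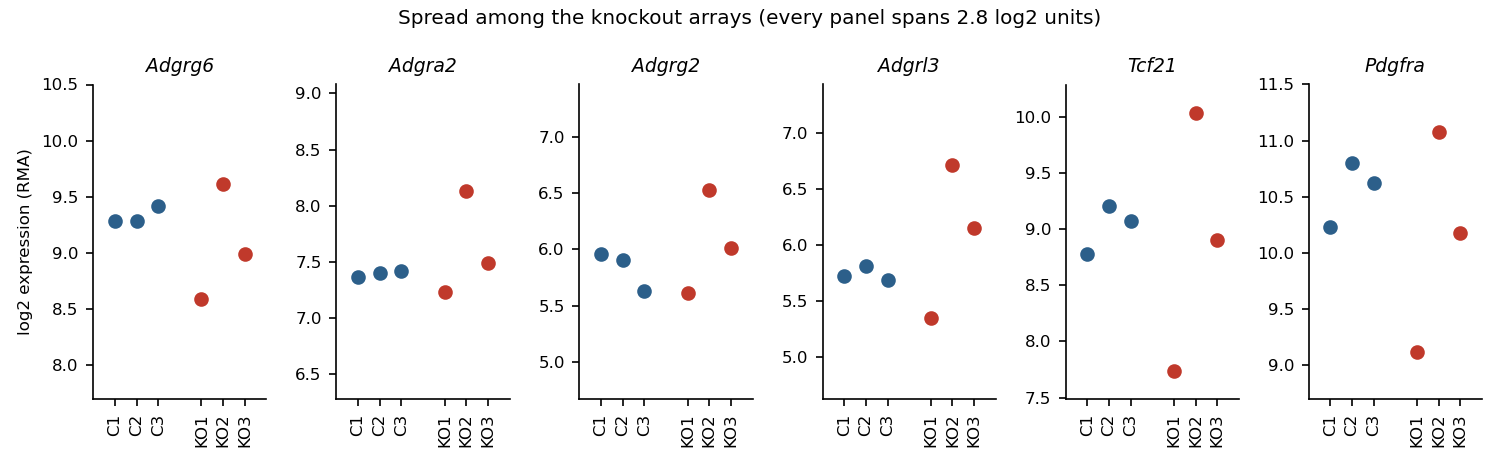
Log2 expression on the 3 control (C1 to C3, blue) and 3 knockout arrays (KO1 to KO3, red) of the 4 adhesion receptors with the widest range among knockout arrays and of the fibroblast genes Tcf21 and Pdgfra. In each gene shown KO1 is the lowest and KO2 the highest knockout array, and the controls of the receptors lie closer together. Tcf21 and Pdgfra were picked after their values were seen. Only 3 of the 7 mesenchymal markers that ranged over at least 0.5 had this order.

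The remaining members of the family showed no called change. Of 20 other adhesion receptor genes 18 were measured, and 0 passed the limma threshold, beside 8.49% of all genes. At an unadjusted p under 0.05 there were 3, beside 4402 of all 19938 genes, and the median difference was 0.057. The latrophilin Adgrl1 stood at -0.19 ± 0.07 (adjusted p = 0.147) and Adgre4 at 0.14 ± 0.05 (adjusted p = 0.169). The latrophilin Adgrl2 stood at -0.20 ± 0.13 (limma adjusted p = 0.433) with overlapping groups. Its 8 probe sets all had a negative difference, from -0.32 to -0.02, but they measure 1 gene on the same arrays and are not replicates. Adgrl3, at 0.33 ± 0.30, was the only one of the 18 to pass without knockout 1, at 0.69 (adjusted p = 0.0393). The macrophage receptor Adgre1 read 4.93, 4.74 and 4.68 against 4.68, 4.70 and 4.77, and the endothelial receptor Adgrl4 read 4.43, 4.71 and 4.87 against 4.64, 4.59 and 4.47, both with overlapping groups.

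**Figure D4:**
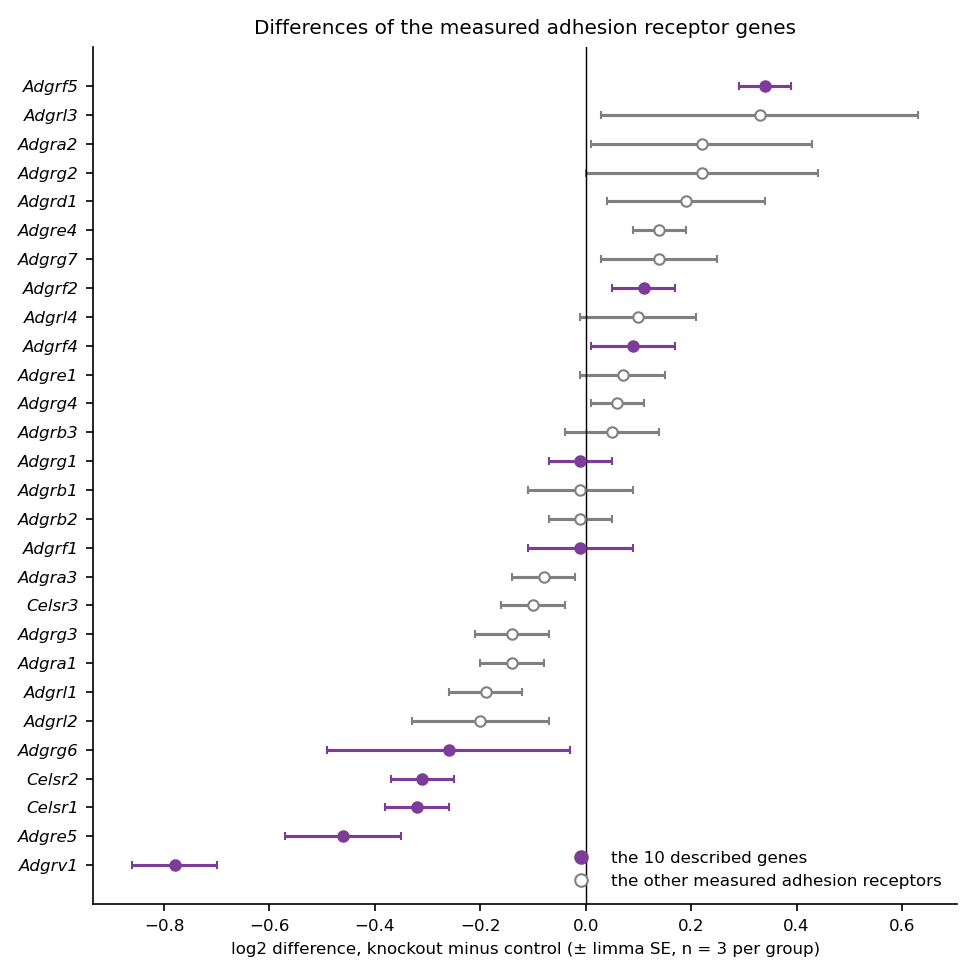
Log2 difference (knockout minus control, ± limma SE, n = 3 per group) of the 28 measured adhesion receptors, the 10 described genes filled and the other 18 open. Gpr116 (Adgrf5) has the highest value at 0.34, next to Adgrl3 with a wide error, and Adgrv1 the lowest at -0.78.

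Genes for ligands of these receptors were measured to see whether partners moved with them. Of 22 ligand genes 2 rose, 1 fell and 19 did not pass, with a median of 0.018. The share called was 13.6%, beside 8.49% of all genes. Cd55, the ligand of Adgre5, fell by 0.38 ± 0.08 (difference -0.38, limma adjusted p = 0.0282), reading 9.24, 8.97 and 9.06 against 9.50, 9.50 and 9.42. Receptor and ligand were therefore both lower on all 3 knockout arrays. Prnp, the prion protein, an activator of Adgrg6, rose by 0.47 ± 0.07 (adjusted p = 0.0103), reading 11.54, 11.46 and 11.55 against 11.17, 11.02 and 10.95. The collagen IV chain Col4a2, another Adgrg6 ligand, rose by 0.41 ± 0.08 (adjusted p = 0.024), while its partner chain Col4a1 stood at 0.34 ± 0.09 (adjusted p = 0.0656, and 0.00492 without knockout 1). Sftpd, surfactant protein D, a reported ligand of Gpr116, read 12.31, 12.27 and 12.38 against 12.27, 12.28 and 12.27, a difference of 0.05 ± 0.05. Without control 2 or control 3 none of the 3 called ligands passed, and without knockout 3 or control 1 only Prnp did.

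Celsr receptors work with the core planar polarity proteins. Of 12 such genes 0 rose, 1 fell and 11 did not pass (8.33% called, beside 8.49% of all genes). Fzd3, the Frizzled receptor that sits with Celsr proteins at cell borders, fell by 0.54 ± 0.08 (difference -0.54, limma adjusted p = 0.00971). It read 7.48, 7.46 and 7.22 on the knockout arrays and 7.96, 7.94 and 7.89 on the controls, and leaving out any 1 control ended the call (highest adjusted p = 0.0537). Fzd6 stood at -0.30 ± 0.10 and Vangl1 at -0.21 ± 0.08, and both passed without knockout 1. Prickle2 stood at -0.30 ± 0.15 and passed without knockout 2 (limma adjusted p = 0.0209), and Ankrd6 stood at -0.22 ± 0.10. The median difference of the 12 genes was -0.017. The transmembrane protein Vangl2 and the cytoplasmic effectors Dvl1, Dvl2 and Dvl3 differed by 0.05 or less in size. Of 7 measured genes of the Usher complex, in which Adgrv1 takes part, 0 passed by limma and 0 had an unadjusted p under 0.05. Over all 19938 genes these were 8.49% and 4402 genes. The differences of the 7 lay between -0.16 and 0.06. Pdzd7, a scaffold for Adgrv1, stood at -0.16 ± 0.08 (adjusted p = 0.342, and 0.0435 without knockout 1) and Ush1g at 0.06 ± 0.05 (adjusted p = 0.576).

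G proteins and the phospholipase C enzymes that Gq proteins switch on carry the receptor signal into the cell. Of 13 measured coupling genes 1 rose, 1 fell and 11 did not pass, with a median difference of 0.020. The share called was 15.4%, beside 8.49% of all genes. The Gq class subunit Gna14 fell by 0.88 ± 0.12 (difference -0.88, limma adjusted p = 0.00746), reading 7.19, 6.86 and 6.81 against 7.99, 7.76 and 7.74, and it was called whichever array was left out. The widely expressed subunits Gnaq and Gna11 differed by 0.05 ± 0.06 and 0.02 ± 0.07, with overlapping groups. Gnai3, an inhibitory subunit, rose by 0.36 ± 0.08 (adjusted p = 0.0328), a call kept in 1 of 6 fits with an array left out. Without knockout 1, knockout 3 or any 1 control Gna14 was the only coupling gene called.

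**Figure D5:**
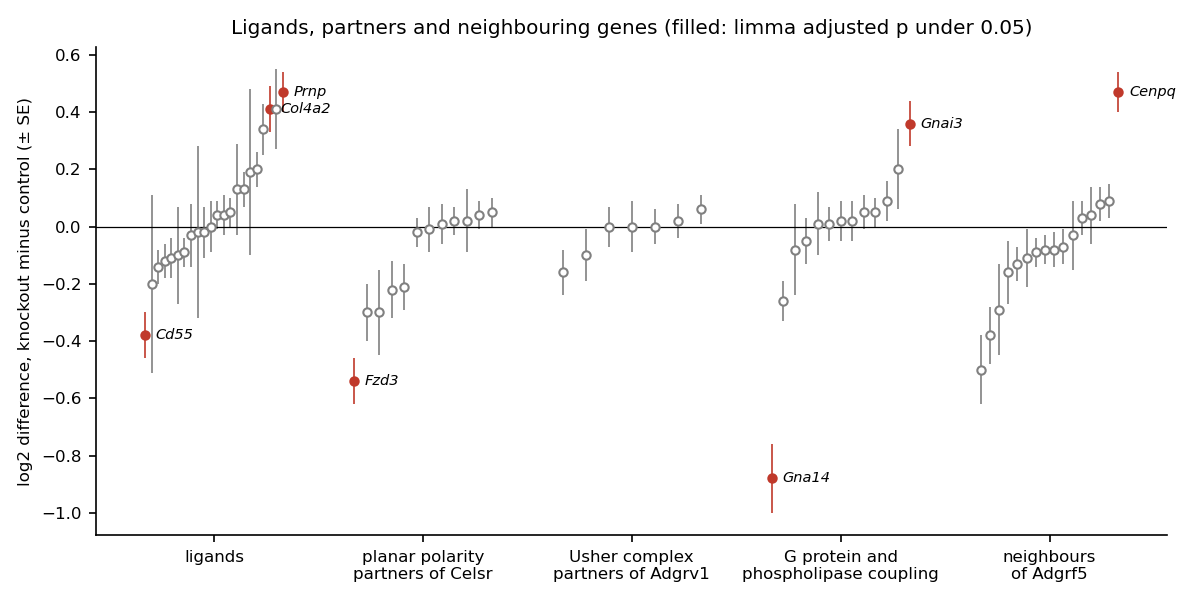
Log2 difference (knockout minus control, ± SE, n = 3 per group) of the ligand, polarity, Usher complex and coupling genes and of the neighbours of Gpr116 (Adgrf5), sorted within each list, with genes past the limma threshold filled and named. Gna14 at -0.88 and Fzd3 at -0.54 are the lowest, and no Usher complex gene passed.

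With predicted and clone gene symbols left out, the 5 genes whose array values were most like those of Gpr116 were Sema4d, Gpc4, Cox7a2, Socs6 and Fbxl5. Likeness was the root-mean-square difference over the 6 arrays after each gene's mean was taken off, on log2. It was 0.0111 for the semaphorin Sema4d, which read 8.05, 7.95 and 8.01 on the knockout arrays and 7.66, 7.70 and 7.68 on the controls. For the other 4 it ran from 0.0263 for the glypican Gpc4 to 0.0273 for Fbxl5, and their differences lay between 0.30 and 0.35 like that of Gpr116. Sema4d has 2 probe sets, whose mean gave a difference of 0.10, and Socs6 has 3, whose mean gave 0.24. The genes were picked for this pattern, so their differences are a description.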

How the data were processed

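Each array measured total RNA from 1 pool of 3 mice. The authors deposited log2 values; the submitters' processing notes name RMA and Affymetrix Expression Console 1.1. RMA makes array distributions alike, so a shift common to most genes is removed. No genome build is named in the sources used here. Array medians lay between 6.77 and 6.81. Precision is limited by the number of arrays.

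Gene names came from the platform's annotation table (21789 of 35556 with 1 symbol), and for a gene with several the one with the highest mean was kept, leaving 19938 genes. Knockout and control were compared with limma 3.58.1 in R 4.3.3 (eBayes without trend, two-sided, Benjamini-Hochberg over all genes, threshold 0.05). The median SD of a gene was 0.0907 on knockout and 0.0624 on control arrays. The fit was tested on simulated data. Named genes were all members and, per list, those called or else the 2 with the smallest p, plus the 5 nearest patterns. Esam, Pecam1, Kdr, Retnlg, Sftpd and other genes named with values were added after their values were seen. The members and lists were chosen with earlier results of these data known, and the list of coupling genes was shortened after its values were seen: a set of its genes is not reported here. Replicate numbers are shared by the groups. Deviations of same-numbered arrays correlated at 0.192, 0.103 and 0.111, each over 0.1, so a fit with the number as a block stands beside results it changes. Differently numbered arrays ran from -0.135 to 0.0428. Deviations from the group mean cancel within a group, so these correlations depend on each other and cannot show that arrays were paired. The pairing in the block fit rests on the values alone.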

Additional observations from a re-analysis of the deposited data

How the results depend on the processing

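The differences of the 10 receptors were recomputed under 13 alternatives, 126 values in all. Each stayed within 1 SD (the larger group SD) of the value given, but most could not have done otherwise. Leaving out 1 of 3 arrays cannot move a difference that far. The block, trend, above-median and probe set alternatives leave the difference of a gene with 1 probe set unchanged. With an array left out, Adgrg6 ran from -0.54 to -0.03. The alternatives were the replicate block, an intensity trend with robust prior, only genes above the median level (which leaves 6 of the 10), the mean of all probe sets, array weights, a common array median, all probe sets of the table, and leaving out each array. With all probe sets tested, 414 genes were called higher instead of 670, and 2 of the receptors lower instead of 4, since Celsr1 and Adgre5 did not pass. The same setting left 1 ligand gene (Prnp) and 1 coupling gene (Gna14) called. With 1 array left out, the genes called ran from 144 to 835 higher and from 301 to 1265 lower, the receptors from 0 to 1 higher and from 1 to 5 lower, and the other adhesion receptors from 0 to 1. The replicate block gave 615 genes higher and 969 lower, with 1 receptor higher and 3 lower, and it ended the calls of Adgre5 and Cox7a2, let Pla2g7 pass, and changed no other call among the genes named by rule. For the genes outside the 10 receptors that the naming rule picked, 45 recomputed values kept their direction but lost the threshold and 1 (Pdzd7) crossed it. Among other receptor, ligand, partner and neighbour genes given in the text, Pla2g7, Col4a1, Fzd6, Vangl1, Prickle2 and Adgrl3 crossed it under at least 1 alternative. Calls of the cell type markers under the alternatives are not given. The number of arrays, 3 per group, limits every value.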
